A study of Homo sapiens with 6 samples.

Results

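Collagens and the glycoproteins that surround them make up the extracellular matrix, and the genes examined here are the collagen chain genes, the thrombospondins, the lysyl oxidases, the fibulins and 13 further symbols (LOX, TNC, FN1, SPARC, POSTN, LUM, DCN, BGN, VCAN, FBN1, FBN2, ECM1 and TGFBI). Genes were taken by symbol, and the list of symbols was drawn up with earlier results of these data known. The rule matched 62 of the 29176 genes measured, of which 39 were collagens and 23 were not. POSTN, DCN, FBLN3, FBLN4 and FBLN6 matched no row, and POSTN and DCN were not analysed here. EFEMP1, EFEMP2 and HMCN1, other names of FBLN3, FBLN4 and FBLN6, were outside the rule and are given beside the fibulins. RNA was sequenced from HaCaT cells, an established line of immortalized human keratinocytes, at 48 hours. Small interfering RNA was used in both groups, a control sequence in 3 samples (si-NC+M5) and a sequence against eIF4E in the other 3 (si-eIF4E+M5). All 6 samples had also been stimulated with M5, the stimulus that the series title gives for its culture model of psoriasis, so every difference below is between stimulated cells. No label states whether replicates were separate cultures, so the p-values cover the spread among these 6 samples alone, and that spread may be technical.

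Collagen chains fold into triple helices in the endoplasmic reticulum, where prolines and lysines are hydroxylated, and are then secreted, trimmed and cross-linked. In skin, fibroblasts of the dermis make most of the fibrillar collagens, while keratinocytes make collagens of the basement membrane and its anchoring structures. Matrix glycoproteins such as thrombospondins, tenascins and fibronectin bind collagens and cell-surface integrins and are known to change in wounded and inflamed skin. EIF4E encodes the factor that binds the messenger RNA cap to start translation, and the comparison asks what lowering it does to these transcripts.

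The knockdown target was lower in all 3 treated libraries. EIF4E was at 3.46, 3.21 and 3.43 FPKM (counts scaled by gene length and library total) in the control libraries and at 1.47, 1.24 and 1.59 FPKM in the knockdown libraries, a log2 fold change of -1.25 ± 0.09 (SE). Libraries held between 71044961 and 74246501 counts, and the lowest counts fell in steps, with 4 the most frequent count above 0 in the table. Keratinocyte markers were all present, with 12 of 12 above 1 FPKM and a summed level of 3697 to 3760 FPKM in control libraries and 3688 to 3937 FPKM in knockdown libraries. Of these 12 markers 3 rose (KRT5, PERP and DSG3) and 2 fell (KRT17 and ITGA6), or 41.7% against 15.8% of all tested genes, and the part of this in the matrix results was not tested. Of 10 fibroblast markers that are not among the matrix genes 7 had a row, 6 of these were under 0.1 FPKM on average and the exception was TWIST2, at 3.38 ± 0.38 and 3.38 ± 0.18 FPKM (SD, n = 3). The summed fibroblast markers were at 3.08 to 3.88 FPKM in the control libraries and 3.29 to 3.59 FPKM in the knockdown libraries, so the groups overlapped, and TWIST2 made up most of each sum. FAP was the marker without overlap between groups, at 4, 4 and 0 counts in the controls and 32, 12 and 10 after knockdown, too low to be tested.

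These cells made much RNA from few matrix genes. TGFBI and COL17A1 ranked 103 and 165 among the 29176 genes by mean FPKM, and together with COL7A1 and THBS1 they held 87.7% ± 0.17 of the summed FPKM of the 62 genes in controls and 88.3% ± 0.53 after knockdown (SD, n = 3). A mean of at least 1 FPKM was reached by 18 genes. COL17A1 and COL7A1 alone gave 83.2% ± 0.28 of the collagen FPKM in controls and 82.9% ± 0.79 after knockdown.

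The threshold of 10 counts divided the genes as follows. A count above 10 was present in every library for 31 genes, in some libraries only for 19, and in none for 12. Just inside were COL15A1, with 12 to 31 counts over the libraries, and COL4A4, with 12 to 32, and just outside was COL13A1, with 10 to 43. COL3A1, called higher below, was also just inside, with 12 to 104 counts. The filter on low counts before the test kept 42 genes, 11 of which had a library at 10 counts or fewer. The number of counts that 1 sequenced fragment adds is not given in the sources used here, so 10 counts may stand for fewer fragments. With all counts divided by 4, a setting chosen after seeing the data, 29 genes were kept. The 20 genes that the filter removed never exceeded 16 counts, and 5 of them had no count in any control library and 3 none in any knockdown library.

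**Figure D1:**
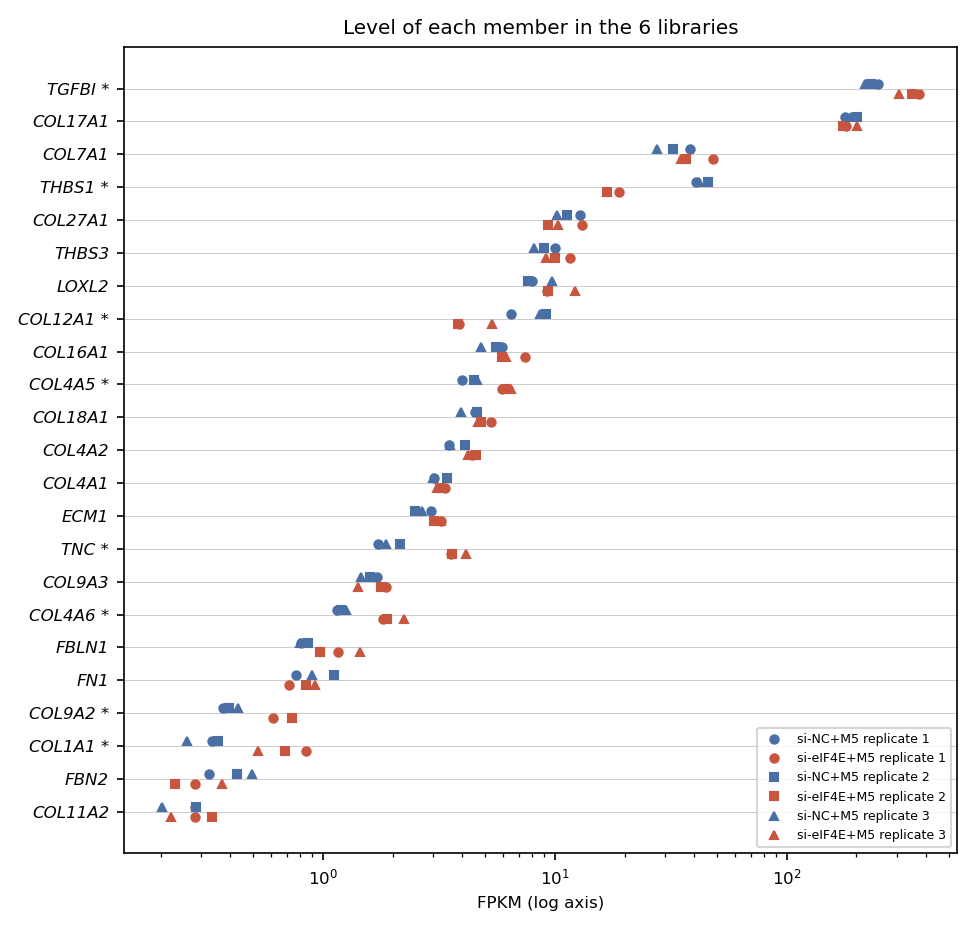
FPKM (log axis) of the 23 genes with a mean of at least 0.2 FPKM, with control libraries in blue, knockdown libraries in red and a marker shape per replicate number. An asterisk marks the genes that passed the test. TGFBI and COL17A1 lie above 170 FPKM in every library, and THBS1 and COL12A1 are the genes with an asterisk whose red markers lie to the left of the blue ones.

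Across the matrix genes the change was uneven, with 7 genes higher and 2 lower in the knockdown cells. TGFBI, TNC, COL4A5, COL4A6, COL1A1, COL3A1 and COL9A2 rose, and THBS1 and COL12A1 fell. The 9 called genes are 21.4% of the 42 tested, where 15.8% of all 18022 tested genes were called (edgeR's quasi-likelihood test, adjusted p under 0.05). In the higher direction the share was 16.7% against 7.44% of all tested genes, and in the lower direction 4.76% against 8.4%. Groups did not overlap in normalised counts for 15 of the 42 genes, or 35.7%, close to the 33.8% of all tested genes. The median log2 fold change of the tested matrix genes was 0.19 (29 above 0 and 13 below), against -0.0061 over all tested genes. In bulk RNA, a change in the number of cells that express a gene and a change in RNA per cell cannot be told apart. A two-sided exact permutation test of any gene alone cannot go below p = 0.1 with 3 samples against 3.

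**Figure D2:**
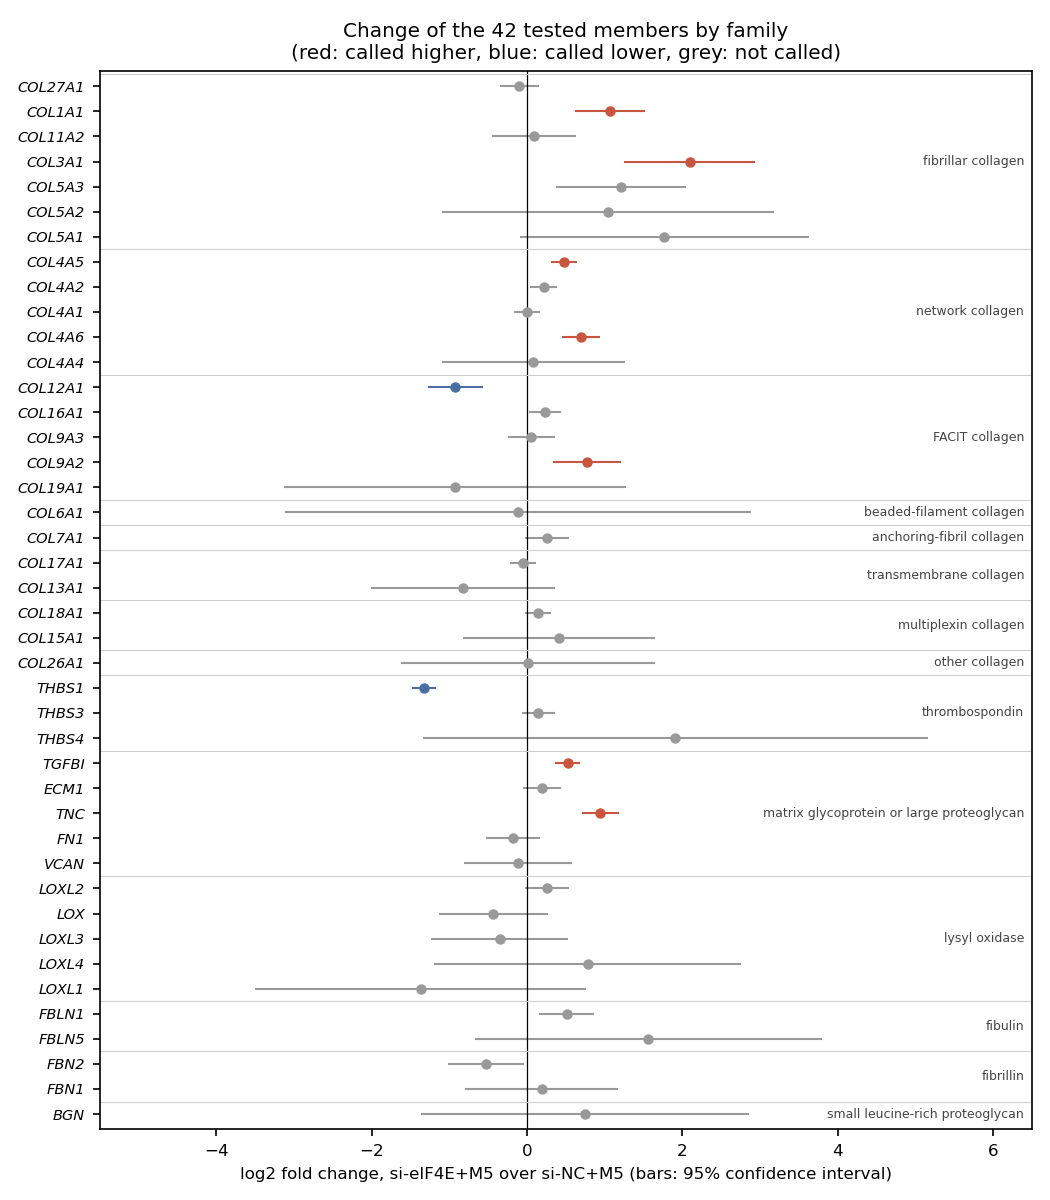
Log2 fold change (si-eIF4E+M5 over si-NC+M5) of the 42 tested genes with 95% confidence intervals, grouped by family and ordered by level within each. The 7 genes called higher are in red and the 2 called lower in blue. Intervals widen towards the low genes, such as THBS4 and COL6A1.

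Thrombospondins are secreted glycoproteins that bind matrix, cell-surface receptors and growth factors, and the member that fell was the most abundant of the family. THBS1, which binds CD47 and CD36 and activates latent TGF-beta, was at 40.5, 46.0 and 42.02 FPKM in the control libraries and at 18.97, 16.8 and 16.7 FPKM in the knockdown libraries. Every control library lay more than 20 FPKM above every knockdown library. THBS1 (ENSG00000137801, plus strand of chromosome 15, 39581079 to 39599466 in GRCh38) fell 2.50-fold, with a log2 fold change of -1.32 ± 0.07 (SE; 95% confidence interval -1.48 to -1.17; adjusted p = 2.0e-05). THBS3, a five-armed family member, was at 9.08 ± 0.96 and 10.3 ± 1.25 FPKM (SD, n = 3) and did not pass (log2 fold change 0.15 ± 0.09, 95% interval -0.06 to 0.35). The ratio of THBS1 to THBS3 within a library needs no scaling between libraries. It was 4.02, 5.10 and 5.15 in controls and 1.63, 1.68 and 1.83 after knockdown, without overlap (exact permutation p = 0.1, the smallest possible). With THBS3 not called, the ratio restates the fall of THBS1 and is no separate support for it. THBS4 had 0 to 28 counts and THBS2 0 to 14.

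FACIT collagens sit on the surface of fibrils and link them to other matrix parts, and within this family COL12A1 fell and COL9A2 rose. COL12A1, the chain of collagen XII, was at 6.49, 9.18 and 8.64 FPKM in the control libraries and at 3.85, 3.83 and 5.37 FPKM in the knockdown libraries. The lowest control library was still above the highest knockdown library. COL12A1 (ENSG00000111799, minus strand of chromosome 6, 75084326 to 75206053) had a log2 fold change of -0.93 ± 0.16 (SE), a 1.9-fold fall with an adjusted p of 0.0040. COL16A1, the chain of collagen XVI, was at 5.45 ± 0.56 and 6.53 ± 0.83 FPKM and did not pass (0.23 ± 0.09, adjusted p = 0.13). COL12A1 stood above COL16A1 in each control library (ratio 1.10, 1.64 and 1.79) and below it in each knockdown library (0.51, 0.65 and 0.87). That ratio likewise restates the fall of COL12A1.

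The other genes of this family were lower in level. COL9A2, a chain of collagen IX, was at 0.372, 0.393 and 0.430 FPKM in the control libraries and at 0.612, 0.738 and 0.736 FPKM in the knockdown libraries. Its log2 fold change was 0.77 ± 0.19 (adjusted p = 0.024), and the call was lost without any of 4 libraries in turn: si-NC+M5 replicate 1 or 2, or si-eIF4E+M5 replicate 2 or 3 (adjusted p between 0.071 and 0.078). Its partner chain COL9A3 was at 1.59 ± 0.12 and 1.69 ± 0.24 FPKM and did not pass (0.06 ± 0.14). COL19A1 had 0 to 20 counts, and COL20A1 and COL22A1 were not tested.

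The windows around the transcription starts of the pair of genes that fell are shown because both hold the letters GGAATG, a core that TEAD transcription factors are known to bind, a motif picked after the THBS1 window had been seen. Each window holds 300 bases around the start in RefSeq on GRCh38.p14, and capitals mark the letters. They lie at chr15:39580829-39581128 on the plus strand for THBS1 and at chr6:75206004-75206303 on the minus strand for COL12A1, with the first letter at position -46 and -167 relative to the start.
THBS1: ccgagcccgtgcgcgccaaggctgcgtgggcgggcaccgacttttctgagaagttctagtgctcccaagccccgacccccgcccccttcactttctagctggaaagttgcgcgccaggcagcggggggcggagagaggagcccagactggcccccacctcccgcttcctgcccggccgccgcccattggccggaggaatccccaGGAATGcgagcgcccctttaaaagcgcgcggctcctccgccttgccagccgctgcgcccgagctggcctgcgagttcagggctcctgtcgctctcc
COL12A1: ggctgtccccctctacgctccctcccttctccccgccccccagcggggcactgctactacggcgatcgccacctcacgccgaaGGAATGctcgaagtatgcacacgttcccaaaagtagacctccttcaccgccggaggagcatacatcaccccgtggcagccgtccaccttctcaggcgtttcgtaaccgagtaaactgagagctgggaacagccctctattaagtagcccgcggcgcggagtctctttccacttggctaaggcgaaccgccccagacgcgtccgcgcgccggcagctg
The same letters, on either strand, stand in 14.03% of all 35116 RefSeq windows of 300 bases, in 5 of the 48 windows of tested matrix genes and in none of the 6 windows of genes that rose. The 3 further windows with them belong to COL11A2, FBN1 and LOXL3, which did not pass. With only 6 windows of genes that rose, of which those of COL4A5 and COL4A6 share 121 bases, finding none is not far from 14.03%. The AP-1 letters TGANTCA were found in 7.71% of all windows and in 1 of the 48, that of ECM1, and in neither window shown. GGGCGG, the letters of the SP1 GC box, were in both windows shown, so GGAATG is not the only motif they share. GGGCGG stood in 44.95% of all windows, in 33 of the 48 and in 4 of the 6 of genes that rose. CCAAT was in the THBS1 window and not in that of COL12A1, and TATAAA was in neither. Windows were given for 36 of the 42 tested genes, and COL1A1 and COL3A1 had no window in the RefSeq table.

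**Figure D3:**
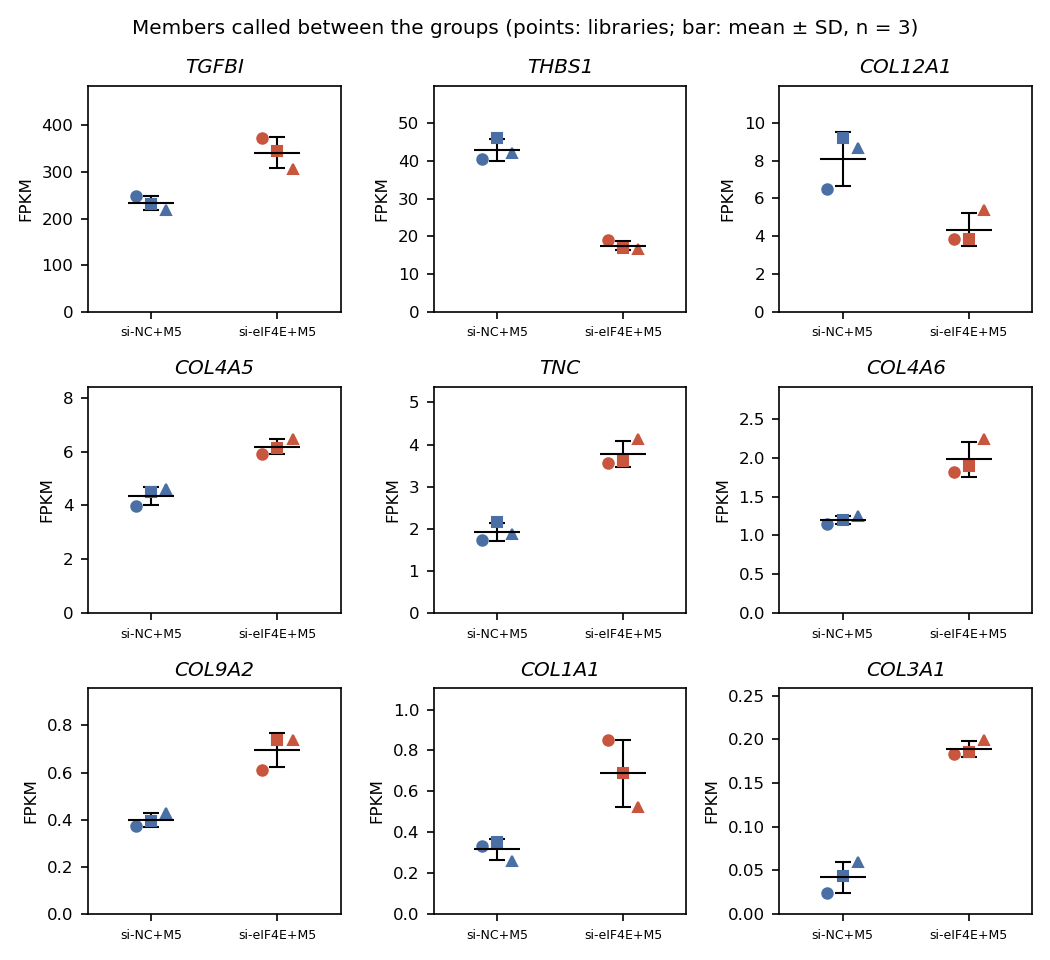
FPKM of the 9 called genes in each library (points, one marker shape per replicate number) with the mean and SD of each group (n = 3), on linear axes from 0. In every panel all 3 knockdown libraries lie on the same side of all 3 control libraries.

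Among the glycoproteins, TGFBI and TNC rose. TGFBI encodes the TGF-beta-induced protein, a secreted protein that binds collagens and integrins, and was the most abundant of the 62 matrix transcripts examined. It was at 249, 232 and 219 FPKM in the control libraries and at 372, 346 and 306 FPKM in the knockdown libraries. The groups did not overlap. The gap between them was wider than the range within the control group and narrower than the range within the knockdown group. TGFBI (ENSG00000120708, plus strand of chromosome 5, 136028988 to 136063818) had a log2 fold change of 0.52 ± 0.07 (adjusted p = 0.0012), a 1.44-fold rise. Its share of the summed matrix FPKM went from 41.0% ± 1.84 to 51.5% ± 3.04 (SD, n = 3). The summed level of all 62 genes was 568 ± 19.5 and 662 ± 33.4 FPKM without overlap between groups (exact permutation p = 0.1). Without TGFBI, the largest member and a called one, it was 335 ± 13.2 and 321 ± 16.1 FPKM, with overlap (exact permutation p = 0.6). This second sum includes the fall of THBS1 from 42.8 ± 2.85 to 17.5 ± 1.26 FPKM, so it does not show the other genes unchanged.

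TNC encodes tenascin-C, a hexameric glycoprotein of wound and inflamed matrix. It was at 1.73, 2.16 and 1.88 FPKM in the control libraries and at 3.57, 3.61 and 4.13 FPKM in the knockdown libraries. TNC (ENSG00000041982, minus strand of chromosome 9, 115019575 to 115118257) rose 1.92-fold, with a log2 fold change of 0.94 ± 0.11 (adjusted p = 5.0e-04). ECM1, a glycoprotein of the skin that binds several matrix proteins, was at 2.70 ± 0.23 and 3.16 ± 0.13 FPKM and did not pass (0.19 ± 0.11, adjusted p = 0.28). FN1, the fibronectin gene, was low in these cells, at 0.763, 1.12 and 0.896 FPKM in the control libraries and 0.717, 0.851 and 0.925 in the knockdown libraries. The FN1 groups overlapped, and its log2 fold change was -0.18 ± 0.16 (95% interval -0.53 to 0.17). VCAN, encoding the proteoglycan versican, stayed under 0.105 FPKM in every library and SPARC under 17 counts.

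Fibrillar collagens form the rope-like fibres of connective tissue, and their transcripts were rare in these keratinocytes, apart from COL27A1. COL1A1, the main chain of collagen I, was at 0.334, 0.353 and 0.259 FPKM in the control libraries and at 0.851, 0.689 and 0.524 FPKM in the knockdown libraries. COL1A1 (ENSG00000108821, minus strand of chromosome 17, 50184101 to 50201632) rose 2.10-fold, with a log2 fold change of 1.07 ± 0.20 (adjusted p = 0.0060), from 188 to 243 counts in the control libraries and 369 to 589 in the knockdown libraries. Its partner chain COL1A2 was almost without counts, at 16, 8 and 0 in the control libraries and 4, 0 and 0 in the knockdown libraries, and was not tested. COL3A1, the chain of collagen III, reached 12, 23 and 32 counts in the controls and 95, 97 and 104 counts after knockdown. That was a 4.27-fold rise (95% interval 2.37 to 7.66, adjusted p = 0.0051) at a level under 0.20 FPKM.

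The chains of collagen V, which starts fibrils of collagen I, were as rare. COL5A3 was at 26, 46 and 34 counts in the control libraries and at 117, 82 and 57 in the knockdown libraries. The groups did not overlap, and the log2 fold change of 1.21 ± 0.37 missed the threshold (adjusted p = 0.055). COL5A1 had 0, 25 and 19 counts against 44, 46 and 66 (1.77 ± 0.84, adjusted p = 0.20), and COL5A2 had 33, 0 and 23 against 59, 48 and 12 (1.04 ± 0.96). Summed over the fibrillar collagens without COL27A1, the level was 0.786, 0.840 and 0.645 FPKM in the control libraries and 1.72, 1.504 and 1.17 FPKM in the knockdown libraries. COL27A1, a fibrillar chain known from cartilage, was the abundant member at 11.5 ± 1.32 and 10.9 ± 1.99 FPKM and did not pass (-0.10 ± 0.11, 95% interval -0.35 to 0.15). COL11A2, at 0.26 ± 0.047 FPKM in the controls and 0.28 ± 0.055 FPKM after knockdown, is part of this sum and did not pass (0.09 ± 0.24, adjusted p = 0.87). Of the fibroblast markers, PDGFRA and TWIST2 were tested and were not called. The others were too low to be tested, so the directions of their counts are uncertain. FAP went from 0 to 4 counts in the controls to 10 to 32 after knockdown. THY1 went from 8, 0 and 4 counts to 0, 0 and 0, PDGFRB from 0, 0 and 16 to 0, 0 and 4, and PRRX1 from 0, 4 and 4 to 0, 0 and 0. TWIST1 had 0, 0 and 0 counts against 0, 0 and 4. PDGFRA was at 0.042 ± 0.033 and 0.048 ± 0.0049 FPKM, and TWIST2 at 3.38 FPKM in both groups. The part of any fibroblasts in the rises of fibrillar collagens was not tested.

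Collagen IV forms the network of basement membranes, and its 6 chain genes lie in 3 head-to-head pairs. The pair on chromosome X rose, while the pair on chromosome 13 did not pass and the pair on chromosome 2 (COL4A3 and COL4A4) had at most 32 counts in any library. COL4A5 was at 3.98, 4.49 and 4.62 FPKM in the control libraries and at 5.93, 6.15 and 6.47 FPKM in the knockdown libraries. Its log2 fold change was 0.47 ± 0.08 (adjusted p = 0.0031). COL4A6 was at 1.15, 1.20 and 1.26 FPKM in the control libraries and at 1.82, 1.897 and 2.24 FPKM in the knockdown libraries, a log2 fold change of 0.70 ± 0.11 (adjusted p = 0.0028). Neither gene had overlapping groups.

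The chain genes COL4A5 (ENSG00000188153, plus strand, 108439838 to 108697545) and COL4A6 (ENSG00000197565, minus strand, 108155607 to 108439497) have these positions in the table and diverge. In RefSeq their nearest starts, at 108439838 and 108439458, are 380 bases apart, and the windows around them overlap by 121 bases. The windows are shown because these neighbours rose together, at chrX:108439588-108439887 on the plus strand for COL4A5 and chrX:108439409-108439708 on the minus strand for COL4A6, each 5′ to 3′ on its own strand with the shared stretch in capitals.
COL4A5: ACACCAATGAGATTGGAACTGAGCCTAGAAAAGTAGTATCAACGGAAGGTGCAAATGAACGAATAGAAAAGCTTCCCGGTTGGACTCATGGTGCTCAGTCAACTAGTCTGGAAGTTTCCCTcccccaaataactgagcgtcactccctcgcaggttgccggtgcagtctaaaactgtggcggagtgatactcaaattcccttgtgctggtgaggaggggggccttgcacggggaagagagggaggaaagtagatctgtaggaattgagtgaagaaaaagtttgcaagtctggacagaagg
COL4A6: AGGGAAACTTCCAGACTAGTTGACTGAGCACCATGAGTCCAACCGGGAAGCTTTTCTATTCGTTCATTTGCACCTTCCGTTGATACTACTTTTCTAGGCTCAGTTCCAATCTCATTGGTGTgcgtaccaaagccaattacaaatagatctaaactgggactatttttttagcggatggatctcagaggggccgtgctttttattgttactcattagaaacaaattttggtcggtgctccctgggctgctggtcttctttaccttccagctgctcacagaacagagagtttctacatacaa
The shared stretch holds CCAAT, which stands on either strand in 34.6% of all RefSeq windows. RefSeq gives COL4A6 a further start inside the gene, and counts per gene do not separate the starts. The pair on chromosome 13 starts closer together, 127 bases apart, and its windows share 226 bases (chr13:110307108-110307333, given here on the plus strand for comparison).
COL4A1 and COL4A2: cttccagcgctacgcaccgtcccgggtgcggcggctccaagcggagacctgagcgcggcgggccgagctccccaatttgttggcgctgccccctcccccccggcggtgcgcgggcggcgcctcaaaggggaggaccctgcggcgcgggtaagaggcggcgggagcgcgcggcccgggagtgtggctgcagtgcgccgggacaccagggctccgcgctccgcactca
This stretch also holds CCAAT, and TATAAA, present on either strand in 11.5% of all windows, was in none of the windows of these 2 pairs that meet in a shared stretch.

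COL4A1 and COL4A2 encode the chains found in nearly all basement membranes. COL4A1 was at 3.01, 3.45 and 3.00 FPKM in the control libraries and at 3.37, 3.197 and 3.10 FPKM in the knockdown libraries. The groups overlapped, and the log2 fold change of 0.00068 had a 95% interval of -0.16 to 0.16. COL4A2 was at 3.49, 4.10 and 3.54 FPKM against 4.41, 4.56 and 4.22, without overlap, and did not pass (0.21 ± 0.08, adjusted p = 0.092). The ratio of COL4A2 to COL4A1 was 1.16, 1.19 and 1.18 in the control libraries and 1.31, 1.43 and 1.36 in the knockdown libraries. The ratio of COL4A6 to COL4A5 was 0.289, 0.269 and 0.272 in the control libraries and 0.307, 0.308 and 0.347 in the knockdown libraries. Both ratios were without overlap (exact permutation p = 0.1, the smallest possible). In the coordinates of the table COL4A1 and COL4A2 overlap by 1346 bases on opposite strands, and whether counting used strand is not given in the sources used here.

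**Figure D4:**
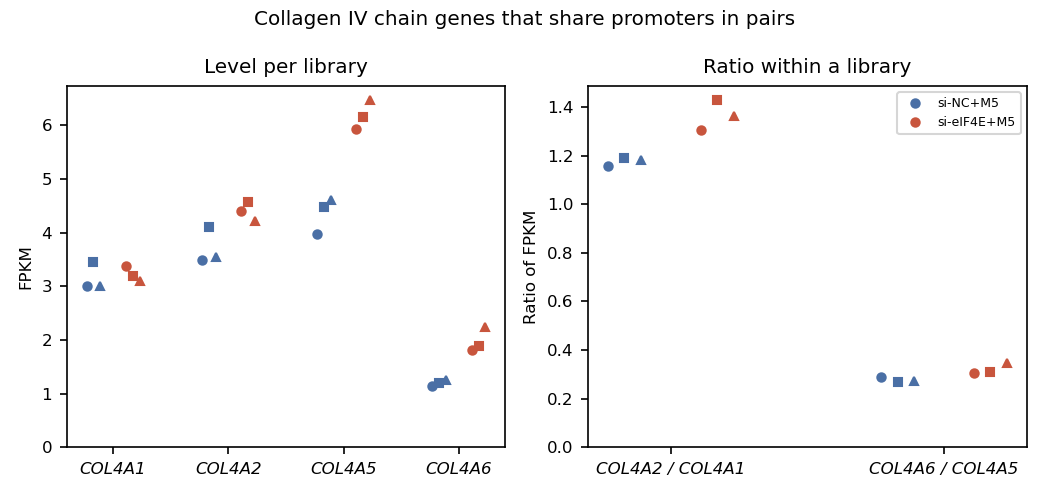
Left, FPKM of the 4 well-measured collagen IV chain genes in each library, with control libraries in blue and knockdown libraries in red. Right, the ratio of the paired genes within each library. The red markers of COL4A5 and COL4A6 lie above all blue ones, and those of COL4A1 lie among them.

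The collagens that fasten keratinocytes to the dermis were the most abundant collagens and did not pass. COL17A1, the transmembrane collagen of hemidesmosomes, was at 178, 200.1 and 189 FPKM in the control libraries and at 180.4, 176 and 202 FPKM in the knockdown libraries. The groups overlapped, with a log2 fold change of -0.05 ± 0.07 (95% interval -0.22 to 0.11). COL7A1, the chain of the anchoring fibrils, was at 38.3, 32.3 and 27.6 FPKM against 48.3, 36.8 and 35.0 (0.26 ± 0.13, 95% interval -0.02 to 0.54, adjusted p = 0.21). COL18A1, a basement membrane multiplexin whose end fragment is endostatin, was at 4.38 ± 0.37 and 4.93 ± 0.34 FPKM (0.14 ± 0.08, adjusted p = 0.27). SLC19A1 overlaps 20149 bases of COL18A1 on the opposite strand, and its part in these values was not tested. The collagen VI chains COL6A1, COL6A2, COL6A3 and COL6A6, which form beaded filaments in connective tissue, had at most 39 counts in any library.

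Lysyl oxidases cross-link collagens and elastin, and 0 of 5 were called by edgeR (0 at an unadjusted p under 0.05) or by DESeq2, which gave no adjusted p for LOXL1 and LOXL4. With 15.8% of all tested genes called, 0 of 5 is not far from the background. LOXL2 was the abundant member, at 7.96, 7.68 and 9.74 FPKM in the control libraries and 9.25, 9.39 and 12.2 FPKM in the knockdown libraries. The LOXL2 groups overlapped (0.26 ± 0.13, adjusted p = 0.22), and ENTPD4 overlaps it on the same strand, so their reads may not be separable. LOX was at 0.21 ± 0.018 and 0.16 ± 0.058 FPKM (-0.43 ± 0.31, adjusted p = 0.42). On the opposite strand SRFBP1, with a mean of 1359 counts, overlaps 12376 bases of LOX, where LOX itself had a mean of 79.8 counts. HTRA2 and DOK1 overlap LOXL3 and LOXL1-AS1 overlaps LOXL1, also on the opposite strand. The strand setting of counting is not given, and the part of these neighbours in the low values was not tested. LOXL1, LOXL3 and LOXL4 had at most 58 counts in any library and log2 fold changes of -1.37 ± 0.95, -0.35 ± 0.39 and 0.78 ± 0.89.

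Fibulins and fibrillins organise elastic fibres and basement membranes. Under the FBLN and FBN symbols, 0 of 4 tested genes were called by edgeR (2 at an unadjusted p under 0.05, FBLN1 and FBN2), while DESeq2 called FBLN1. The share of all tested genes called was 15.8% here too. Outside these symbols EFEMP1 (FBLN3) was more abundant, at 26.5 ± 0.89 and 28.7 ± 0.72 FPKM (0.08 ± 0.06, edgeR adjusted p = 0.38). EFEMP2 (FBLN4), at 0.76 ± 0.10 and 0.77 ± 0.27 FPKM, and HMCN1 (FBLN6), with 21 to 60 counts, did not pass either. FBLN1 was at 0.810, 0.867 and 0.795 FPKM in the control libraries and at 1.17, 0.969 and 1.45 FPKM in the knockdown libraries. These groups did not overlap, and the log2 fold change of 0.51 ± 0.16 missed the threshold (adjusted p = 0.055). FBN2, the fibrillin of developing tissue, was at 0.41 ± 0.087 and 0.29 ± 0.069 FPKM (-0.53 ± 0.22, adjusted p = 0.14). FBN1 had 20 to 52 counts. Of the small leucine-rich proteoglycans, which bind and space collagen fibrils, BGN had 0 to 53 counts and LUM 4 counts in a single control library and 0 in the others.

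Partner genes of collagen were examined in 3 lists. Of 24 tested genes of folding, modification, export and processing 2 rose and 1 fell, which is 12.5% against the 15.8% of all tested genes. The chaperone gene SERPINH1 was at 45.7 ± 0.91 and 43.7 ± 1.15 FPKM (log2 fold change -0.09 ± 0.05, adjusted p = 0.29), and P4HB, a subunit of prolyl 4-hydroxylase, was at 84.3 ± 1.10 and 89.5 ± 2.52 FPKM (0.06 ± 0.06). Of 15 receptors of collagens, fibronectin and thrombospondins 2 rose and 3 fell, or 33.3%. ITGB6, whose protein pairs with that of ITGAV to bind fibronectin, tenascin-C and latent TGF-beta, rose from 92.0 ± 3.65 to 173 ± 10.9 FPKM (0.89 ± 0.06, adjusted p = 3.6e-05), and ITGAV rose by 0.30 ± 0.08. ITGB5 fell from 18.8 ± 0.66 to 12.9 ± 0.57 FPKM (-0.58 ± 0.06), and the collagen receptor kinase DDR1 from 69.3 ± 1.58 to 52.2 ± 3.48 FPKM (-0.44 ± 0.06). CD47, a receptor of THBS1, was at 37.6 ± 2.20 and 38.96 ± 1.96 FPKM and did not pass.

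Of 18 tested matrix proteins outside the symbol rule 3 rose and 2 fell, or 27.8% against 15.8% of all tested genes. LTBP2, a binding protein of microfibrils, rose from 4.42 ± 0.071 to 6.59 ± 0.55 FPKM (0.54 ± 0.06, adjusted p = 6.0e-04). CCN1, a matricellular protein, fell from 11.3 ± 0.98 to 6.90 ± 0.83 FPKM (-0.74 ± 0.09, adjusted p = 7.9e-04). Over the 3 lists 7 of 57 tested genes rose and 6 fell, or 22.8%, where 7.44% and 8.4% of all tested genes did, or 15.8% in all, with a median log2 fold change of 0.01.

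**Figure D5:**
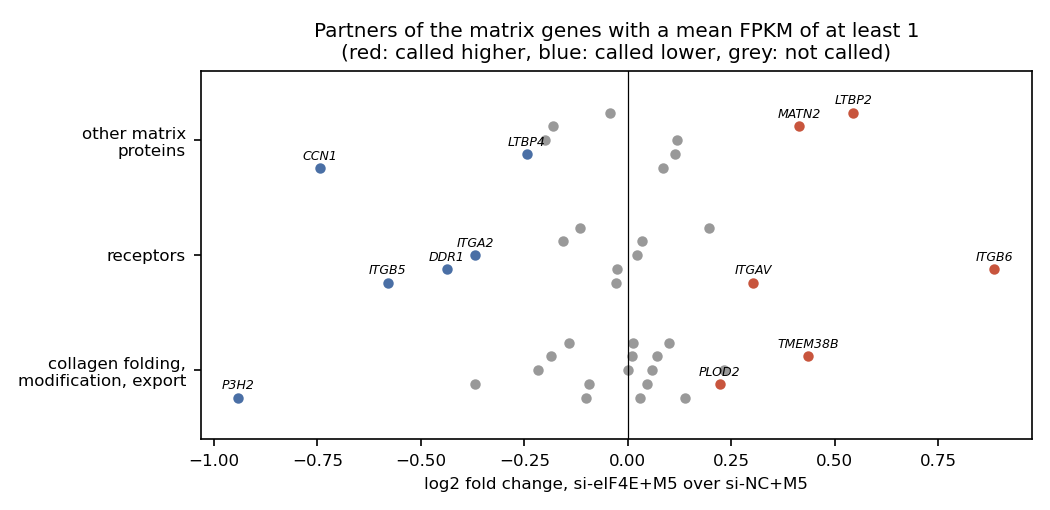
Log2 fold change (si-eIF4E+M5 over si-NC+M5) of the 41 partner genes with a mean of at least 1 FPKM, in rows by list, with called genes named in red (higher) or blue (lower). ITGB6 lies farthest to the right and P3H2 farthest to the left, and most genes of collagen folding and export lie near 0.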

How the data were processed

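RNA was sequenced from 6 HaCaT libraries, 3 per group, and groups were read from the sample titles. The authors deposited whole-number counts per gene and FPKM values (per the file headers). Trimming used cutadapt 1.9, quality was examined with FastQC and the genome build was GRCh38, per the submitters' processing notes, with aligner, counter and strand setting not given in the sources used here. Low counts were uneven, with 6249 deposited values at 4, 2847 at 8 and 1695 at 12, against 3015 at 3 and 2092 at 5, so errors of low counts may be larger than their size gives.

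Counts of all genes were tested with edgeR 4.0.16 in R 4.3.3 (filterByExpr at 10 counts, TMM factors of 0.98 to 1.04, two-sided quasi-likelihood test, Benjamini-Hochberg over 18022 genes, called at an adjusted p under 0.05). The common biological coefficient of variation was 17.4%. FPKM is as deposited, as mean ± SD over 3 libraries, and log2 fold changes are knockdown over control with SE. The members and lists were chosen with earlier results of these data known. By rule, called members of at least 0.5 FPKM in the higher group, uncalled ones of at least 10 FPKM and up to 3 called partner genes per direction of at least 5 FPKM were named; others were named to describe their family or after their values were seen. Promoters came from RefSeq, and all 62 identifiers were in GENCODE v29. The test was checked on data simulated with the same variation for all genes and without the steps of the low counts. That check does not cover errors of low counts. Alternatives were DESeq2 1.42.0, limma 3.58.1 on log2(FPKM + 1) or log2(FPKM + 0.1), other scalings and filters, a robust spread, a replicate block, each library left out and, chosen after seeing the data, counts divided by 4. Ratios were tested with scipy 1.17.1.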

Additional observations from a re-analysis of the deposited data

How the results depend on the processing

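In 16 other settings 8 of the 9 called matrix genes kept their call wherever they were tested, COL9A2 being the exception, and none changed sign. Of the 33 uncalled genes 6 were called in at least 1 setting: COL16A1, COL7A1, LOXL2, COL4A2, COL5A3 and FBLN1. With the replicate number as a block 11 matrix genes were called higher, adding COL16A1, COL7A1, LOXL2 and COL4A2, and 2 lower. The share of all genes called with the block is not given here. Samples sharing a number correlated at 0.030 to 0.044 in their deviations from the group means. Samples of different numbers correlated at -0.030 to -0.0021, so each sample correlated best with its own number. These correlations are small and do not settle whether samples were paired. The main fit used no block because the labels do not say what the numbers stand for. DESeq2 called 10 higher and 2 lower, and 1789 and 1797 of all 18022 genes, against 1340 and 1513 in the main fit. Counts divided by 4 called 9 and 2 of 29 matrix genes, and 1506 and 1637 of all 14797 genes. More genes were thus called over the whole table in both settings. Leaving out 1 library gave 6 to 7 higher and 2 to 2 lower. The median log2 fold change of the tested matrix genes was 0.15 to 0.20 with 1 library left out, 0.048 on log2(FPKM + 1), which shrinks low genes by construction, 0.23 among genes of at least 1 FPKM and 0.11 without a filter on low counts. Over all genes 724 to 1168 were called higher and 874 to 1191 lower with 1 library left out, and 801 were called higher without the filter. Both lowest counts came without si-NC+M5 replicate 2. Partner genes called higher were 4 without the filter and 3 to 7 with 1 library left out, and those called lower 4 to 6. The 3 higher calls came without si-NC+M5 replicate 1 or 2 or without si-eIF4E+M5 replicate 3. Signs turned in 7 uncalled genes. With 1 library left out COL6A1 ranged from -0.72 to 2.65, COL26A1 from -0.35 to 0.61, COL4A4 from -0.23 to 0.43, COL11A2 from -0.072 to 0.22, COL4A1 from -0.040 to 0.076, FBN1 from -0.060 to 0.66 and VCAN from -0.32 to 0.14. COL6A1 was also at 0.015 on log2(FPKM + 0.1) and at 0.94 with the replicate block, and COL4A1 at -0.00048 without the filter. The cause of these changes was not tested. Depth limits the 22 members with a mean of at most 10 counts, of which 2 were tested.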

Other observations

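Some called partner genes fell outside the naming rule and were picked after their values were seen. NID1, encoding nidogen-1, which links collagen IV to laminin, was at 0.194, 0.264 and 0.242 FPKM in the control libraries and at 1.19, 0.984 and 1.17 FPKM in the knockdown libraries. It rose by 2.22 ± 0.18 on the log2 scale (edgeR adjusted p = 1.5e-04), while its paralog NID2 had at most 12 counts in any library. P3H2, a prolyl 3-hydroxylase known to act on collagen IV, was at 3.74, 3.57 and 3.66 FPKM against 2.04, 1.79 and 2.00 FPKM. It fell by 0.94 on the log2 scale (edgeR adjusted p = 2.4e-04). PLOD2, a lysyl hydroxylase, and TMEM38B, an endoplasmic reticulum channel, rose by 0.22 ± 0.06 and 0.44 ± 0.10.

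Of the 12 keratinocyte markers 5 were called by edgeR. KRT5 rose from 407 ± 29.9 to 605 ± 36.7 FPKM (SD, n = 3, log2 fold change 0.54 ± 0.07, adjusted p = 0.0013). PERP rose by 0.62 ± 0.07 and DSG3 by 0.26 ± 0.07. ITGA6, the integrin chain of hemidesmosomes, fell from 119 ± 7.87 to 79.6 ± 9.39 FPKM (-0.61 ± 0.09, edgeR adjusted p = 0.0017), and KRT17 had a log2 fold change of -0.45 ± 0.11. KRT14 and TP63 were among the 7 that did not pass (0.02 ± 0.06 and 0.04 ± 0.07). ITGA2, the collagen-binding integrin chain, fell from 73.8 ± 5.24 to 58.4 ± 8.58 FPKM (log2 fold change -0.37 ± 0.10, edgeR adjusted p = 0.035).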
